A study of Mus musculus with 70 samples.

Results

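The transcripts of 10 inflammasome and interleukin-1 genes were followed in 4 types of leukocytes from mouse blood. The genes were Nlrp3, Nlrc4, Pycard, Casp1, Casp4, Gsdmd, Il1b, Il18, Il1rn and Il1r2. They were chosen by name, as the sensors, adaptor, caspases, pore and cytokines of the inflammasome with both natural blockers of interleukin-1. Each matched 1 row by its Ensembl identifier, 10 of the 52636 genes in the count table.

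The study used C57BL/6J mice aged 7 to 8 weeks. Stressed mice went through chronic social defeat stress (CSDS) for 10 days, in which each was defeated by an aggressive CD-1 mouse. They were then split by the social interaction test, with a ratio below 1 for susceptible (SUS) and of at least 1 for resilient (RES) mice. Control (CON) mice were not defeated and were housed in pairs across a partition. After lysis of red cells, trunk blood was sorted on CD11b, Ly6C, Ly6G, B220 and CD90.2 into 2 types of monocytes (Ly6Chigh and Ly6Clow), B cells and T cells. The split by behaviour means that SUS and RES mice had the same treatment and differ in outcome. The labels give the cell type (Ly6high, Ly6low, Bcells, Tcells) and the condition of each library, name no mouse, and state brain as the source where the methods describe blood. No label says that libraries of a group came from separate mice, so the p-values cover the spread between libraries.

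Each group had 6 libraries, except for 4 CON libraries of Ly6Clow monocytes. Levels are given in CPM, reads of a gene scaled to the size of the library. The B cell gene Cd79a was 5.76 CPM in library 52, which is labelled as B cells of RES mice, while the T cell gene Cd3e was 412 CPM there. Library 70, labelled as T cells of RES mice, had the opposite, Cd3e at 0.143 and Cd79a at 1417 CPM. These libraries were left out, which left 68 libraries with 5 RES libraries each of B cells and T cells. In the 17 remaining B cell libraries, Cd79a was 1166 to 1883 CPM and Cd3e at most 1.69 CPM, and in the 17 T cell libraries Cd3e was 372 to 530.1 CPM and Cd79a at most 9.81 CPM. Totals ran from 19769835 to 67038231 counts per library. The 5 markers of non-classical monocytes summed to 5411 to 7491 CPM in Ly6Clow and 760.3 to 1760.0 CPM in Ly6Chigh libraries. Summed natural killer cell markers were 244 to 1345 CPM in Ly6Clow libraries and 43.5 to 118 CPM in T cell libraries. All levels below are CPM normalized by TMM over the 68 libraries, and levels of different genes are compared only per kilobase (kb) of exon.

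An inflammasome is a protein complex that forms around a sensor once the cell detects microbial products or damage. The adaptor ASC, encoded by Pycard, links the sensor to caspase-1, which cuts the precursors of interleukin-1β and interleukin-18 and opens the pore protein gasdermin D. In monocytes the transcripts of Il1b and Nlrp3 are usually induced first by NF-kappaB, in a step known as priming, and activity of the complex is controlled at the protein level. Read counts measure only the transcripts.

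In unstressed mice each of the 10 genes had its highest mean in one of the monocyte types. Nlrp3 and Il1b were at or near 0 in B cells, while the difference from Ly6Chigh monocytes was under 2-fold for Nlrc4 in B cells and for Pycard in T cells. Genes were tested over the 22 CON libraries with edgeR's quasi-likelihood test, and a call needed both an adjusted p under 0.05 and a log2 fold change above 1 in size. Between Ly6Chigh monocytes and B cells, 9 of 10 members were called (all but Nlrc4), all higher in monocytes, against 33.1% of 21032 genes tested in either direction. Against T cells it was 9 of 10 (all but Pycard), also all higher in Ly6Chigh monocytes, against 32.8% of all genes. In Ly6Clow monocytes 7 of 10 were called higher than in B cells (background 30.3%) and 8 of 10 higher than in T cells (background 28.5%). Between the monocyte types only Nlrp3 and Il1b were called, 2 of 10, in opposite directions, against 11.2% of all genes. Between B and T cells 4 of 10 were called higher in B cells (Nlrc4, Casp1, Casp4 and Il18), against 20.2% of all genes in either direction. Another 3 (Nlrp3, Il1b and Il1rn) were past the thresholds toward T cells at means under 1 CPM, but like Il1r2 they entered the fit only through the monocytes and were not tested in a fit of B and T cells alone, so nothing is read from them. In the counts of monocytes against lymphocytes these 4 genes also entered through the monocytes and had to differ there, so those counts are a description. The median log2 difference of the 10 members was 2.37 between Ly6Chigh monocytes and B cells and 4.35 between Ly6Chigh monocytes and T cells, where the median of all genes was 0.02 and −0.05. These medians include the same 4 genes, so they are a description too. In bulk RNA of sorted cells, fewer cells that hold a transcript and less of it per cell cannot be told apart.

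**Figure D1:**
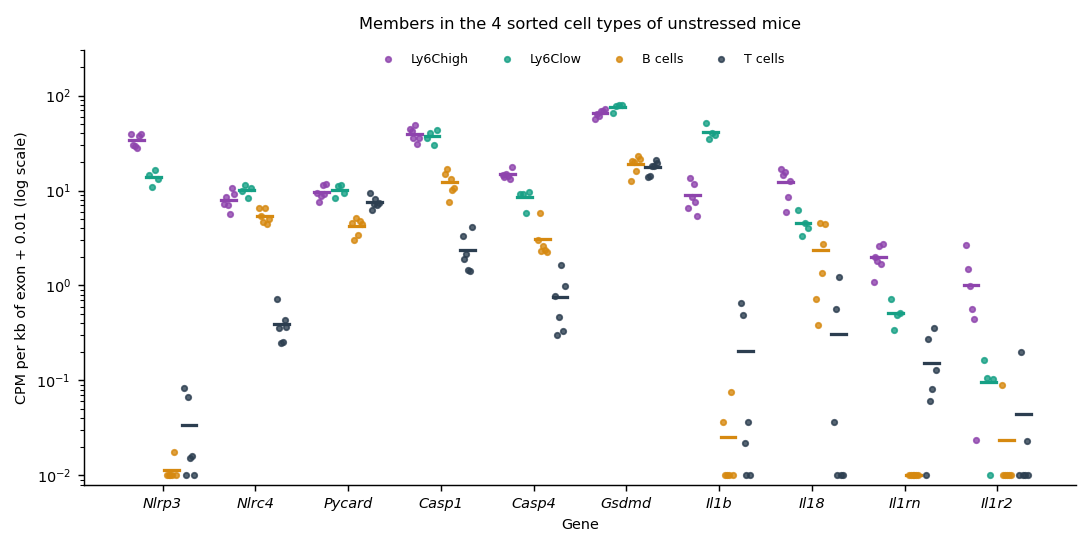
Level of each member in unstressed mice, in CPM per kb of exon plus 0.01 on a log axis, with 1 point per library and a bar at the mean. Gsdmd is highest per length in all 4 cell types, Nlrp3 and Il1b stand near the bottom of the axis in B and T cells, and Pycard differs least between cell types.

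Per length of exon, Gsdmd stood first in all 4 cell types. In CON Ly6Chigh monocytes Gsdmd had 65.4 ± 5.78 CPM per kb (SD, n = 6), followed by Casp1 at 39.7 ± 6.76 and Nlrp3 at 33.9 ± 5.39 CPM per kb. The interleukin-1 blockers came last, Il1rn at 1.97 ± 0.608 and Il1r2 at 1.01 ± 0.939 CPM per kb. In CON Ly6Clow monocytes the second place went to Il1b, at 41.5 ± 7.17 CPM per kb (n = 4), and Casp1 was close to it at 37.1 ± 5.64 CPM per kb. In B cells Casp1 and Nlrc4 followed Gsdmd, at 12.2 ± 3.48 and 5.39 ± 0.905 CPM per kb. In T cells Pycard was second at 7.54 ± 1.04 CPM per kb, and the other members were at or below 2.38 CPM per kb. The spread between CON libraries of Ly6Chigh monocytes was smallest for Gsdmd, with a coefficient of variation of 8.84%, and largest for Il1r2, with 92.7%.

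Nlrp3 (ENSMUSG00000032691, chr11:59541568-59566956, plus strand, GRCm38) encodes the sensor that responds to potassium efflux and many forms of cell damage. In CON Ly6Chigh monocytes it ran from 114 to 160 CPM with a median of 138 CPM. The 4 CON libraries of Ly6Clow monocytes had 58.6, 44.5, 67.0 and 53.8 CPM. The groups did not overlap, and the log2 difference was 1.29 (SE 0.31, adjusted p = 0.0039). In B cells 5 of 6 CON libraries had no read of Nlrp3, and the other had 1 read. The 6 CON libraries of T cells had at most 0.296 CPM. At reads this few, B and T cells were not compared for Nlrp3.

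Nlrc4 (ENSMUSG00000039193, chr17:74425438-74459142, minus strand) encodes the sensor that pairs with NAIP proteins to detect bacterial flagellin and secretion systems. Its order of levels was Ly6Clow monocytes (48.4 ± 6.29 CPM), Ly6Chigh monocytes (38.5 ± 8.31 CPM), B cells (25.9 ± 4.35 CPM) and T cells (1.86 ± 0.841 CPM). The monocyte types did not differ beyond their spread (log2 difference 0.34 in favour of Ly6Clow, SE 0.22, adjusted p = 0.336). All 6 B cell libraries, at 21.3 to 31.2 CPM, lay above all 6 T cell libraries, at 1.16 to 3.42 CPM (log2 difference 3.77, SE 0.23, adjusted p = 2.93e-13). Ly6Chigh monocytes exceeded B cells by only 0.61 on the log2 scale (SE 0.20, adjusted p = 0.0145), short of the fold threshold. B cells thus held reads of Nlrc4 in libraries where Nlrp3 had 1 read or none.

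Pycard (ENSMUSG00000030793, chr7:127989708-127993867, minus strand) encodes the adaptor, and the ratio between its highest and lowest mean was the smallest of the members. Its CON level was 38.3 ± 5.51 CPM in Ly6Clow monocytes, 36.9 ± 6.06 CPM in Ly6Chigh monocytes, 28.6 ± 3.97 CPM in T cells and 16.0 ± 3.18 CPM in B cells. T cells ran from 23.9 to 35.5 CPM, and all lay above the B cells, which ran from 11.4 to 19.5 CPM (log2 difference 0.87, SE 0.15, adjusted p = 4.66e-05). The gap between Ly6Chigh monocytes and T cells was 0.37 on the log2 scale (SE 0.15, adjusted p = 0.0488). Exons of Pycard overlap 485 bases of Gm45205 on the opposite strand, and whether reads were counted by strand is not given in the sources used here.

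Casp1 (ENSMUSG00000025888, chr9:5298517-5307265, plus strand) and Casp4 (ENSMUSG00000033538, chr9:5308828-5336783, plus strand) lie 1562 bases apart. Caspase-1 is the effector of the canonical inflammasome, and mouse Casp4 encodes caspase-11, which binds bacterial lipopolysaccharide in the cytosol. Casp1 was 59.5 ± 10.1 CPM in Ly6Chigh and 55.5 ± 8.45 CPM in Ly6Clow monocytes, which did not differ beyond their spread (log2 difference 0.09, adjusted p = 0.874). It was 18.3 ± 5.21 CPM in B cells and 3.56 ± 1.62 CPM in T cells, and B cells exceeded T cells by 2.34 on the log2 scale (SE 0.24, adjusted p = 6.32e-09). Casp4 had the same order of cell types, with 54.9 ± 5.50, 31.3 ± 6.56, 11.3 ± 5.08 and 2.76 ± 1.91 CPM. The 6 Ly6Chigh libraries of Casp4, at 49.4 to 65.3 CPM, all lay above the 4 Ly6Clow libraries, at 33.7, 33.8, 21.6 and 36.1 CPM. In the fit of all 4 cell types the difference of 0.80 on the log2 scale did not pass the test (SE 0.36, adjusted p = 0.127). In a fit of the 2 monocyte types alone it was 0.79 (SE 0.15, edgeR adjusted p = 0.000727), short of the fold threshold. Gsdmd (ENSMUSG00000022575, chr15:75862327-75867408, plus strand), whose product forms the membrane pore, was 179 ± 16.7 CPM in Ly6Clow and 156 ± 13.8 CPM in Ly6Chigh monocytes (log2 difference 0.21, SE 0.14, adjusted p = 0.336). It was 45.0 ± 9.23 CPM in B cells and 41.5 ± 6.74 CPM in T cells, which did not differ beyond their spread (adjusted p = 0.698).

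Il1b (ENSMUSG00000027398, chr2:129364570-129371139, minus strand), the gene of interleukin-1β, ran opposite to Nlrp3 between the monocyte types. Its CON level was 10.2 to 25.6 CPM, with a median of 15.4 CPM, in Ly6Chigh monocytes. It was 98.7, 67.3, 77.5 and 73.3 CPM in the Ly6Clow libraries, all above every Ly6Chigh library. The log2 difference of Ly6Chigh from Ly6Clow was −2.24 (SE 0.66, adjusted p = 0.021), and it missed the threshold without Ly6Clow CON replicate 1 (−2.11, adjusted p = 0.0661). In a fit of the 2 monocyte types alone it was −2.248 (SE 0.215, edgeR adjusted p = 2.82e-07). B cells held at most 0.125 CPM and T cells at most 1.21 CPM in CON mice. Il1b and the antisense gene Il1bos share 25 bases of exon.

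Il18 (ENSMUSG00000039217, chr9:50554827-50581840, plus strand), the other cytokine that caspase-1 releases, was 12.7 ± 4.35 CPM in Ly6Chigh monocytes, 4.67 ± 1.30 CPM in Ly6Clow monocytes and 2.42 ± 1.89 CPM in B cells, and neither step between these neighbours passed the test in the fit of all 4 cell types (adjusted p = 0.352 and 0.419). In a fit of the 2 monocyte types alone, Il18 was higher in Ly6Chigh monocytes (1.42, SE 0.33, edgeR adjusted p = 0.00313). B cells exceeded T cells, where 3 of 6 CON libraries had no read (log2 difference 2.88, SE 0.89, adjusted p = 0.0164). A fit of B and T cells alone missed the threshold (2.92, SE 1.17, edgeR adjusted p = 0.0614). Il1rn (ENSMUSG00000026981, chr2:24336853-24351494, plus strand) encodes the receptor antagonist, a secreted protein that occupies the interleukin-1 receptor without signalling. It was 5.91 to 14.9 CPM in Ly6Chigh and 3.89, 1.81, 2.63 and 2.77 CPM in Ly6Clow monocytes, groups that did not overlap but missed the threshold (log2 difference 1.97, SE 0.75, adjusted p = 0.0704). The fit of the monocyte types alone gave 1.96 for Il1rn (SE 0.35, edgeR adjusted p = 0.00031). No read of Il1rn fell in any of the 6 CON libraries of B cells. Set against a floor of 3 counts over that group, or 0.0148 CPM, Ly6Chigh monocytes were at least 735-fold higher, and the floor covers counting error only. Il1r2 (ENSMUSG00000026073, chr1:40074079-40125231, plus strand), the decoy receptor that binds interleukin-1 without passing a signal, had the lowest level per kb of the members in both monocyte types. It held 0.0255 to 5.05 CPM in CON Ly6Chigh monocytes, at most 0.297 CPM in Ly6Clow monocytes and at most 0.363 CPM in lymphocytes.

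Promoter windows from RefSeq, 250 bases before to 50 bases after a start site on GRCm38.p6, were found for 9 of the 10 members, in 13 windows. They were searched on both strands for the NF-kappaB consensus, the ISRE core of interferon-responsive genes, the C/EBP core TTGCNNAA and the PU.1 core AGGAAGT. Overlapping matches were counted once. These motifs were chosen because NF-kappaB is the known inducer of the primed members and C/EBP and PU.1 are factors of myeloid cells. Of 32851 mouse promoter windows, 8.46% held the NF-kappaB consensus, 3.44% the ISRE core, 10.8% the C/EBP core and 9.35% the PU.1 core. Of the 13 member windows, 8 held none of the 4 motifs. The windows of the 4 members with a match follow, 5′ to 3′ on the strand of the gene, with the matches in capitals. The Nlrp3 window (chr11:59541319-59541618, plus strand) has an NF-kappaB match, and the Casp4 window (chr9:5308599-5308898, plus strand) has 2. The window of Pycard (chr7:127993818-127994117, minus strand) holds 1 C/EBP and 1 PU.1 match, and that of Nlrc4 (chr17:74459059-74459358, minus strand) 1 C/EBP and 2 PU.1 matches. A match describes letters and not a bound site.
Nlrp3: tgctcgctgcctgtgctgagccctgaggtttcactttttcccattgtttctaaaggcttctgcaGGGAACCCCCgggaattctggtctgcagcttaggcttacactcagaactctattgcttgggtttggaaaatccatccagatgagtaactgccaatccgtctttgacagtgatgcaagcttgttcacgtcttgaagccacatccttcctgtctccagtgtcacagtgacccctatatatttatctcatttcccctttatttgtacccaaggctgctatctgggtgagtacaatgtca
Casp4: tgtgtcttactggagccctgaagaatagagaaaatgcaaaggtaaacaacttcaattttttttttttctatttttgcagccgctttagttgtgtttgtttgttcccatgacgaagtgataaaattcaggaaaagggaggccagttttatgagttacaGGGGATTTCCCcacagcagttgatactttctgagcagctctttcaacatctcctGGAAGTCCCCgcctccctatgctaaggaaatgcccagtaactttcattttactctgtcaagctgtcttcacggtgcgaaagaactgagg
Pycard: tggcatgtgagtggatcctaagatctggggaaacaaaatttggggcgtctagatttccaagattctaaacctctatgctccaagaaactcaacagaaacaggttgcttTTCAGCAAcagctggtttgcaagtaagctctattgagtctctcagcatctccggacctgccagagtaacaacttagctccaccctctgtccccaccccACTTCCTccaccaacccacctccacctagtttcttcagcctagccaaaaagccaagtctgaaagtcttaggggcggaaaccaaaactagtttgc
Nlrc4: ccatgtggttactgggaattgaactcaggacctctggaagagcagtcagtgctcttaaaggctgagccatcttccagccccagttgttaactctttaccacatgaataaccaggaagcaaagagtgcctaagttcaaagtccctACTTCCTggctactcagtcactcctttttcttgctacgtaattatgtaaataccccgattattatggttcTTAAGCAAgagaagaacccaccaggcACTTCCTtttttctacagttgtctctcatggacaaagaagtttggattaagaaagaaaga

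As one step of the study, sorted blood leukocytes were sequenced to compare how their transcripts differ between CON, SUS and RES mice. In Ly6Chigh monocytes, none of the 10 members was called at both thresholds for SUS vs. CON mice, against 3.45% of 16955 genes. At the adjusted p alone 1 of 10 passed, Pycard, against 12.6% of all genes (2139, of which 1488 were higher in SUS mice, and 2070 with 1224 higher under DESeq2's size factors). For RES vs. CON mice, 0 of 10 passed either rule, against 0.997% of genes at both thresholds and 4.97% at the adjusted p alone. For SUS vs. RES mice, 0 of 10 passed either rule, against 0% and 0.0059% of all genes. By edgeR's unadjusted p under 0.05, there were 3 of 10 members for SUS vs. CON (Pycard, Il1b and Nlrp3), 1 for RES vs. CON (Il1b) and 1 for SUS vs. RES (Pycard), beside 26.5%, 21.2% and 3.66% of all genes. The groups overlapped for each of the 10 members in all 3 comparisons, while they did not for 6.96%, 4.42% and 0.136% of all genes. The median log2 fold change of the members was 0.06 for SUS and 0.03 for RES vs. CON mice, and that of all genes −0.05 and −0.03. SUS and RES comparisons share the CON libraries.

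**Figure D2:**
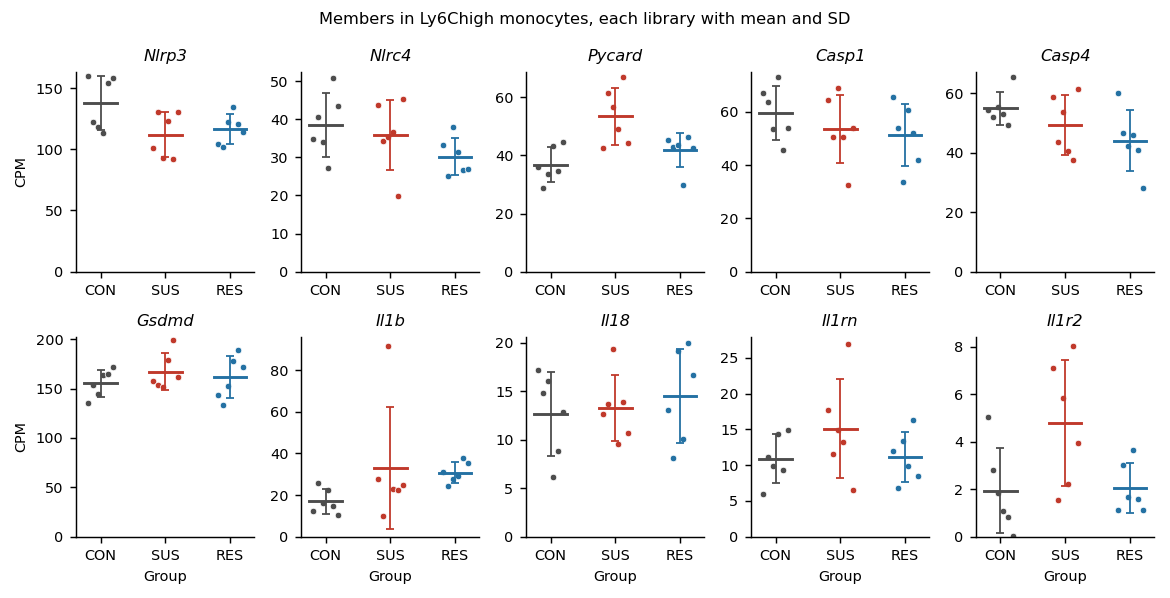
CPM of each member in the 18 libraries of Ly6Chigh monocytes, with 1 point per library, a bar at the mean and whiskers of 1 SD. SUS libraries of Pycard reach 66.8 CPM, and a single SUS library of Il1b at 91.8 CPM lies far above the rest.

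The adaptor Pycard was the only member past the adjusted p for SUS vs. CON in Ly6Chigh monocytes, where 12.6% of all genes passed. It was higher in SUS mice, with overlapping groups. CON libraries ran from 28.9 to 44.7 CPM with a median of 35.3 CPM. SUS libraries ran from 42.4 to 66.8 CPM with a median of 52.9 CPM, and 4 of 6 lay above every CON library. The log2 fold change was 0.51 (SE 0.16, 95% interval 0.17 to 0.84, edgeR adjusted p = 0.0395), which is 1.42-fold. In RES mice Pycard was 29.9 to 46.4 CPM with a median of 43.4 CPM, and the log2 fold change from CON was 0.17 (95% interval −0.16 to 0.50, adjusted p = 0.599). SUS vs. RES gave 0.34 (unadjusted p = 0.0463, adjusted p = 0.999), so a difference between the stressed groups was not shown.

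The call for Pycard sat close to the threshold. Its edgeR adjusted p was 0.0726 with DESeq2's size factors, 0.0715 without a filter on low counts, 0.0611 with at least 10 counts in every library, and 0.0511 with only SUS and CON libraries. It passed in 3 of 8 other fits, with DESeq2's own test (0.0431), without mitochondrial and hemoglobin genes, Gm23935 and Gm26917 (0.0405), and with the neutrophil marker level as a covariate (0.0498). With a library left out it passed in 10 of 18 fits, with the fold change between 0.40 and 0.60 on the log2 scale and the highest adjusted p, 0.125, without SUS replicate 5. Red cell markers moved with the same groups. All 5 matched markers of the 6 listed were detected, and their sum was 233.5 to 891 CPM in CON, 787 to 6316 CPM in SUS and 776 to 3147 CPM in RES libraries of Ly6Chigh monocytes. With that marker level as a covariate, Pycard had a log2 fold change of 0.33 and an adjusted p of 0.959, and 1 of 16955 genes passed for SUS vs. CON. Neutrophil markers summed to 358.5 to 773 CPM in CON, 454 to 1770 CPM in SUS and 452 to 1131 CPM in RES libraries, with all 9 detected. Dendritic cell markers summed to 109.7 to 148.1 CPM in CON and 30.4 to 92.2 CPM in SUS libraries, and platelet markers to 6.06 to 12.1 and 8.72 to 62.1 CPM. By the adjusted p, 5 of 5 red cell and 2 of 6 platelet markers were higher and 1 of 3 dendritic cell markers was lower in SUS than in CON libraries, beside 0 of 8 neutrophil, 0 of 5 non-classical monocyte, 0 of 4 natural killer cell, 0 of 3 B cell and 0 of 3 T cell markers. The part of the dendritic cell and platelet markers in the results for Ly6Chigh monocytes was not tested.

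Of the sensors, Nlrp3 in Ly6Chigh monocytes had a median of 112 CPM in SUS (92.3 to 131 CPM) and 117 CPM in RES mice (102 to 134 CPM), beside 138 CPM in CON mice. The groups overlapped, with 3 of 6 SUS and 2 of 6 RES libraries below every CON library. The log2 fold change was −0.33 for SUS (SE 0.13, 95% interval −0.61 to −0.06, adjusted p = 0.102) and −0.25 for RES mice (SE 0.13, adjusted p = 0.273). For SUS mice it passed with DESeq2 (−0.39, adjusted p = 0.0307) and with at least 10 counts in every library (−0.41, adjusted p = 0.0349), and in none of the 18 fits that left out a library. The median of Nlrc4 was 35.9 CPM for SUS and 29.1 CPM for RES libraries, beside 37.7 CPM for CON, with log2 fold changes of −0.14 (adjusted p = 0.688) and −0.36 (adjusted p = 0.26). One SUS library of Nlrc4, at 19.8 CPM, stood below the other 5 at 34.4 to 45.2 CPM.

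The caspases and the pore gave intervals well inside a 2-fold change. Medians of Casp1 were 58.7 CPM (CON), 52.3 CPM (SUS) and 53.1 CPM (RES), and its 95% interval was −0.57 to 0.18 for SUS and −0.60 to 0.15 for RES vs. CON on the log2 scale. Casp4 had a median of 53.7, 48.5 and 44.2 CPM in the same order. In RES mice 5 of 6 Casp4 libraries lay below every CON library, the sixth was at 60.1 CPM, and the log2 fold change was −0.33 (95% interval −0.67 to 0.01, adjusted p = 0.256). Gsdmd had the narrowest intervals, −0.17 to 0.32 for SUS and −0.20 to 0.29 for RES vs. CON. Its libraries ran from 135 to 172 CPM in CON, 151 to 199 CPM in SUS and 134 to 189 CPM in RES mice. For SUS vs. CON the interval lay within a 2-fold change in both directions for 7 of 10 members and for RES vs. CON for 8 of 10.

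The gene of interleukin-1β was higher on average in both stressed groups, but no test of Il1b passed in the fit of the 3 groups. In Ly6Chigh monocytes the RES libraries ran from 24.1 to 37.6 CPM with a median of 30.0 CPM, and 5 of 6 lay above every CON library. The SUS libraries had 27.6, 9.66, 91.8, 23.1, 22.2 and 24.6 CPM, so that 1 lay below and 2 above all CON libraries. The log2 fold change was 0.85 for RES (SE 0.34, 95% interval 0.15 to 1.56, adjusted p = 0.145) and 0.91 for SUS mice (SE 0.34, 95% interval 0.21 to 1.62, adjusted p = 0.0821). Without the SUS library at 91.8 CPM (replicate 3) the SUS value was 0.32 (adjusted p = 0.486). Without the SUS library at 9.66 CPM (replicate 2) it was 1.10 (adjusted p = 0.0201) and was called. The RES value passed in the fit of RES and CON libraries alone (0.83, adjusted p = 0.0198) and in the fit without SUS replicate 3 (0.86, adjusted p = 0.0488). With the red cell markers as a covariate the fold change was 0.19 for SUS and 0.34 for RES mice.

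Il18 stayed between 6.14 and 19.9 CPM in all 18 libraries, with log2 fold changes of 0.04 for SUS and 0.19 for RES vs. CON (adjusted p = 0.942 and 0.749). The receptor antagonist Il1rn had a median of 14.0 CPM in SUS libraries, where CON had 10.5 and RES 10.9 CPM. Its SUS libraries reached from 6.47 to 26.9 CPM, with 2 of 6 above every CON library (log2 fold change 0.45, SE 0.30, adjusted p = 0.372). The decoy receptor Il1r2 had medians of 1.45 CPM (CON), 4.90 CPM (SUS) and 1.63 CPM (RES). The SUS libraries ran from 1.55 to 8.01 CPM, with 3 of 6 above every CON library, and the log2 fold change was 1.27 (SE 0.68, 95% interval −0.14 to 2.69, adjusted p = 0.242). In the RES group it was 0.05 (SE 0.68). With intervals this wide, neither no change nor a change past 2-fold could be set apart for Il1r2.

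**Figure D3:**
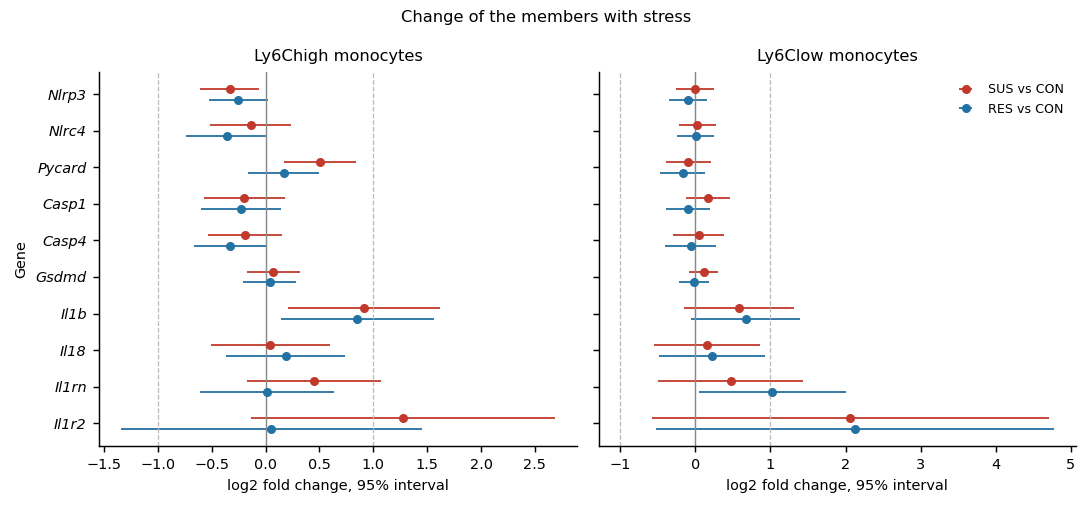
Log2 fold change of each member for SUS and RES vs. CON mice in Ly6Chigh (left) and Ly6Clow monocytes (right), with the 95% interval of the fit and dashed lines at a 2-fold change. The interval of Pycard for SUS mice in Ly6Chigh monocytes lies above 0 and ends below 1, and Il1r2 has the widest intervals.

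In Ly6Clow monocytes no member was called for any comparison. For SUS vs. CON it was 0 of 10 at both thresholds (background 0.0871% of 19521 genes) and at the adjusted p alone (background 0.241%). For RES vs. CON it was 0 of 10 by both rules, beside 0.0154% and 0.0256% of all genes, and for SUS vs. RES 0 of 10 beside 0% and 0% of all genes. By edgeR's unadjusted p under 0.05 there were 0, 1 (Il1rn) and 1 (Casp1) of 10 members in these comparisons, in that order, beside 9.51%, 9.67% and 3.79% of all genes. Il1b for RES vs. CON was the only member with groups that did not overlap, 1 of 10 beside 2.67% of all genes, and for SUS vs. CON and SUS vs. RES it was 0 of 10 beside 1.98% and 0.164%. Its RES libraries held 167, 131, 102, 108, 122 and 139 CPM, all above the highest of the 4 CON libraries at 98.7 CPM. The log2 fold change was 0.67 (SE 0.34, 95% interval −0.06 to 1.40, adjusted p = 0.569). The SUS libraries of Il1b reached from 56.8 to 234 CPM with a median of 96.5 CPM (log2 fold change 0.58, adjusted p = 0.664).

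The median of Il1rn in Ly6Clow monocytes was 5.82 CPM for RES, 2.84 CPM for SUS and 2.70 CPM for CON libraries. In RES mice 5 of 6 libraries were above and 1, at 0.923 CPM, was below every CON library (log2 fold change 1.03, SE 0.48, unadjusted p = 0.041, adjusted p = 0.488). Il1r2 stayed at or below 1.45 CPM in all Ly6Clow libraries. Nlrp3 held 44.5 to 67.0 CPM in CON, 46.7 to 62.8 CPM in SUS and 46.9 to 59.6 CPM in RES mice, and its 95% interval for SUS vs. CON was −0.25 to 0.25. Nlrc4 and Gsdmd had intervals of −0.22 to 0.27 and −0.08 to 0.31. Casp1 had medians of 65.5 CPM (SUS), 52.7 CPM (RES) and 56.3 CPM (CON), and SUS vs. RES gave a log2 fold change of 0.27 (unadjusted p = 0.0459, adjusted p = 1.0). Pycard held 31.0 to 41.3 CPM in SUS and 32.0 to 43.8 CPM in CON mice (log2 fold change −0.09, 95% interval −0.40 to 0.21). The test of the difference between the monocyte types for SUS vs. CON gave 0.62 for Pycard (SE 0.21, unadjusted p = 0.0042, adjusted p = 0.134), and none of the 10 members passed it (background 0.363%).

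**Figure D4:**
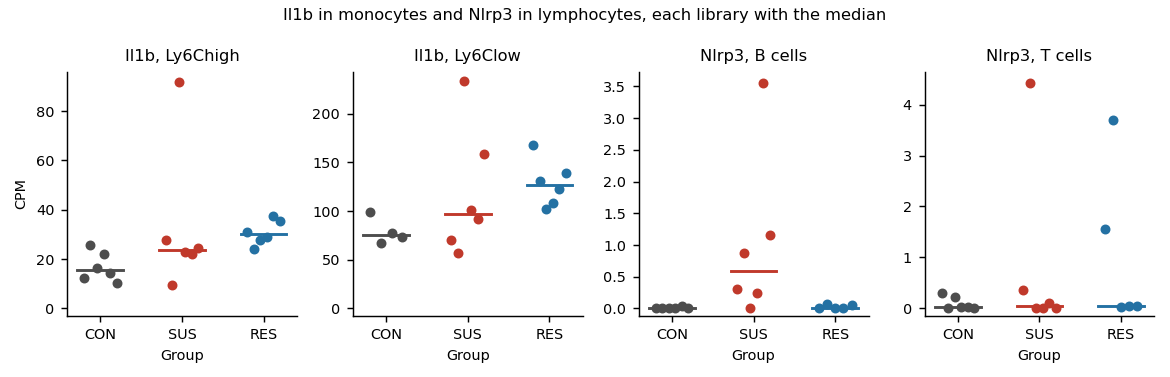
CPM of Il1b in Ly6Chigh and Ly6Clow monocytes and of Nlrp3 in B and T cells, with 1 point per library and a bar at the median of each group. The RES libraries of Il1b lie above all CON libraries in Ly6Clow monocytes, and Nlrp3 has reads in 5 of 6 SUS libraries of B cells.

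In B cells 6 of the 10 members had enough reads to be tested. None was called for SUS vs. CON (0.00568% of 17620 genes by either rule), for RES vs. CON (0%) or for SUS vs. RES (0%). By edgeR's unadjusted p under 0.05 there were 0 of 6 in each, beside 3.42%, 3.18% and 1.36% of all genes. Medians of Nlrc4 were 24.7 CPM (CON), 32.7 CPM (SUS) and 30.6 CPM (RES), with 95% intervals of −0.08 to 0.56 for SUS and −0.15 to 0.52 for RES vs. CON. Casp1 had a median of 18.0, 13.7 and 15.2 CPM in the same order (SUS vs. CON −0.40, unadjusted p = 0.0573). Il18 ran from 0.381 to 4.65 CPM in CON and from 0 to 1.54 CPM in SUS mice (log2 fold change −1.29, SE 0.73, adjusted p = 0.999). Kept under its label, library 52 would have put a Nlrc4 level of 0.510 CPM among the RES B cells, whose other libraries had 32.3, 33.6, 22.9, 30.6 and 27.2 CPM, and would have turned the RES vs. CON value from 0.18 to −0.08 without a call.

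Nlrp3 was at or near 0 in unstressed B cells and had reads in 5 of 6 libraries of SUS mice. The 6 CON libraries held 0, 0, 0, 0, 1 and 0 reads, and the SUS libraries 9, 41, 0, 6, 106 and 28 reads, or 0 to 3.55 CPM. The 5 RES libraries held 0, 3, 0, 0 and 2 reads. Nlrp3 did not pass the filter on low counts within B cells. Without the filter its SUS vs. CON p was 0.000295 and its adjusted p 0.297. In the test of the SUS vs. CON change against that in Ly6Chigh monocytes, 1 of 10 members passed, Nlrp3, beside 6.18% of 24248 genes (adjusted p = 0.00807). Nlrp3 entered that test only through the monocytes, so nothing is read from it about a change in B cells. Pycard passed it only without B cell CON replicate 2 (0.67, adjusted p = 0.0412) or replicate 4 (0.64, adjusted p = 0.043), and for Il1rn, with no read in CON B cells, the difference could not be estimated. Neutrophil markers summed to 10.35 CPM in the SUS library with 106 reads of Nlrp3, 9.57 CPM in that with 6 reads, 3.79 CPM in that with 41 and 0.868 CPM in that with 28, beside 0.133 to 3.07 CPM in CON libraries. Ly6g, Cxcr2, Mpo and Elane were at 0 in all CON libraries and 7 of the 9 neutrophil markers passed 3 reads in a SUS library. In a RES library 6 of the 9 did. Non-classical monocyte markers summed to 95.6 and 91.5 CPM in the libraries with 106 and 28 reads and to 46.5 to 75.6 CPM in CON libraries. Natural killer cell markers summed to 3.016 to 5.962 CPM in CON, 12.53 to 33.65 CPM in SUS and 7.78 to 21.74 CPM in RES libraries of B cells. Dendritic cell markers summed to 2.507 to 6.74, 6.615 to 10.51 and 3.45 to 12.6 CPM in the same order. The part of such cells in the result was not tested.

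In T cells all 10 members entered the test and 0 were called. For SUS vs. CON 0.0265% of 18860 genes passed both thresholds and 0.0424% the adjusted p alone, and for RES vs. CON and SUS vs. RES it was 0%. By edgeR's unadjusted p under 0.05 there were 1 (Nlrc4), 2 (Nlrp3 and Gsdmd) and 0 of 10 members, beside 4.8%, 4.11% and 2.39% of all genes. Nlrp3 entered the test through a few libraries, most of them of stressed mice. With a library left out it was tested in 15 of 17 fits, so nothing is read from its p. Gsdmd had medians of 43.4 CPM (CON), 43.0 CPM (SUS) and 50.1 CPM (RES), and its RES value was 0.29 on the log2 scale (95% interval 0.03 to 0.55, unadjusted p = 0.028, adjusted p = 1.0). Nlrc4 had 1.16 to 3.42 CPM in CON and 0.0181 to 1.41 CPM in SUS mice, with 5 of 6 SUS libraries below every CON library (log2 fold change −1.47, SE 0.72, adjusted p = 0.999). Nlrp3 reached 4.42 CPM in 1 SUS library and 1.56 and 3.69 CPM in 2 RES libraries, while the other 14 stayed at or below 0.361 CPM. Neutrophil markers summed to 7.20, 6.47 and 7.40 CPM in these 3 libraries, in that order. They summed to 14.06 CPM in the SUS library with 0.361 CPM of Nlrp3, to 14.01 CPM in a CON library without a read of it, and to at most 3.72 CPM in the rest. The part of such cells was not tested. Against the T cells, the test of a difference in SUS vs. CON from Ly6Chigh monocytes passed for 0 of 10 members (background 3.22%). The lowest edgeR adjusted p were 0.0574 for Nlrc4 and 0.0785 for Nlrp3. The median of Nlrp3 in T cells was only 0.0229 CPM in CON and 0.0565 CPM in SUS mice. Its level in monocytes alone would bring it into that test, so nothing is read from its value. Library 70, kept under its label, would have added a Nlrc4 level of 33.0 CPM to RES T cells at 2.31, 1.06, 2.11, 1.17 and 0.473 CPM, and would have moved the RES vs. CON value from −0.38 to 1.85 without a call.

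Beyond the members, 52 genes of the same pathways were followed in 5 lists, of which 43 had enough reads in Ly6Chigh monocytes. For SUS vs. CON 4 were higher and 3 lower at the adjusted p (12.6% of all genes), and 3 of these passed both thresholds (3.45% of all genes). For RES vs. CON 3 were higher and 2 lower (4.97% of all genes). The median log2 fold change over the 43 genes was −0.10 for SUS and −0.09 for RES mice. For SUS vs. RES none passed. None of the tested genes of these lists passed in Ly6Clow monocytes (44 tested), B cells (37 tested) or T cells (41 tested) for any comparison, by adjusted p. There edgeR's unadjusted p was under 0.05 for 8, 7 and 2 of 44 genes in Ly6Clow monocytes, in the order of comparisons used above. Of all genes 9.51%, 9.67% and 3.79% had it. In B cells it was 2, 7 and 2 of 37, beside 3.42%, 3.18% and 1.36% of all genes. In T cells it was 4, 6 and 0 of 41, beside 4.8%, 4.11% and 2.39% of all genes.

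Among the sensors, 3 of 11 tested genes fell in SUS mice at the adjusted p, which 12.6% of all genes passed in either direction. Naip5 and Naip6, whose products detect flagellin for NLRC4, were 181 ± 25.0 and 204 ± 13.3 CPM in CON and 119 ± 29.9 and 118 ± 27.4 CPM in SUS mice. Their log2 fold changes were −0.64 (SE 0.16, adjusted p = 0.011) and −0.82 (SE 0.16, adjusted p = 0.00247). For Naip6 every SUS library lay below every CON library, and 6.96% of all genes had groups without overlap in this comparison. In RES mice they fell by 0.60 (adjusted p = 0.0339) and 0.73 (adjusted p = 0.0173) on the log2 scale. Naip5 and Naip6 are close copies, so reads of either may have been lost or assigned to the other. Naip2 held 222 ± 16.8 CPM in SUS, 224 ± 22.4 CPM in RES and 212 ± 8.93 CPM in CON libraries (SUS vs. CON 0.03, adjusted p = 0.889). Aim2, the sensor of cytosolic DNA, fell from 77.9 ± 3.27 CPM in CON to 45.1 ± 15.3 CPM in SUS mice, with no overlap (log2 fold change −0.83, SE 0.24, adjusted p = 0.0232), and was 56.9 ± 20.0 CPM in RES mice (−0.46, adjusted p = 0.263). Mefv, which encodes pyrin, was 149 ± 21.9 CPM in CON and 174 ± 30.9 CPM in SUS mice (0.19, adjusted p = 0.425).

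Of 9 signalling genes, 2 rose in both stressed groups at the adjusted p, which 12.6% (SUS) and 4.97% (RES) of all genes passed. Myd88, the adaptor that interleukin-1 and Toll-like receptors share, stood at 103 ± 14.9 CPM in CON libraries and at 251 ± 91.3 and 205 ± 83.3 CPM in those of SUS and RES mice. Its log2 fold change was 1.26 for SUS (SE 0.24, adjusted p = 0.00206) and 0.98 for RES mice (SE 0.24, adjusted p = 0.024), and all 12 stressed libraries lay above the CON libraries. Tollip, which binds and restrains IRAK1, stood at 76.0 ± 7.35 CPM (SUS) and 84.0 ± 10.6 CPM (RES) beside 54.3 ± 7.97 CPM in CON libraries (0.45 and 0.62, adjusted p = 0.0199 and 0.0138), also with no overlap. Of all genes, 6.96% (SUS) and 4.42% (RES) had groups that did not overlap with CON. Tab2, an adaptor that couples TRAF6 to TAK1, was 352 ± 23.9 CPM in CON and 335 ± 73.7 CPM in SUS mice (adjusted p = 0.653). Among 15 regulators Serpinb1a, an inhibitor of neutrophil serine proteases that also restrains inflammatory caspases, rose from 12.5 ± 2.87 CPM in CON to 27.5 ± 9.07 CPM (SUS) and 23.4 ± 7.90 CPM (RES) (1.10 and 0.89, adjusted p = 0.00576 and 0.0401). Txnip, which can bind NLRP3, was 422 ± 36.8 CPM in CON and 377 ± 83.8 CPM in SUS mice (adjusted p = 0.423).

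**Figure D5:**
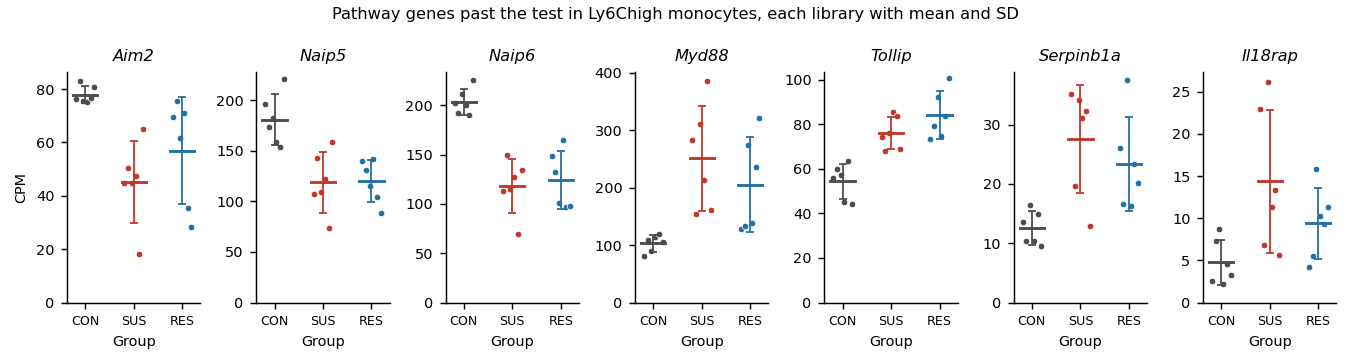
CPM of the 7 further pathway genes that passed the adjusted p in Ly6Chigh monocytes of SUS vs. CON mice, with 1 point per library, a bar at the mean and whiskers of 1 SD. Naip6 and Aim2 of SUS mice lie below and Myd88 and Tollip above all CON libraries.

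Of 6 tested receptors 1 rose in SUS mice at the adjusted p, beside 12.6% of all genes in either direction. Il18rap, the accessory chain of the interleukin-18 receptor, stood at 14.4 ± 8.44 CPM (SUS) and 9.38 ± 4.19 CPM (RES) beside 4.77 ± 2.69 CPM in CON libraries (SUS vs. CON 1.56, SE 0.41, adjusted p = 0.0144). Of 8 further ligands and soluble inhibitors 2 had enough reads to be tested, and none passed. With the red cell markers as a covariate none of these 7 genes passed, with adjusted p from 0.868 to 0.982 for SUS vs. CON, and in each of the other 7 alternative fits all of them did for SUS vs. CON. With a library left out, Aim2 missed the threshold without CON replicate 6 (adjusted p = 0.0549) and Tollip without CON replicate 4 (0.0516). The RES vs. CON values lay nearer to it, and passed in 18 of 18 such fits for Tollip, 15 for Naip6, 13 for Myd88, 10 for Naip5 and 8 for Serpinb1a. The rise of Myd88 in SUS mice differed from that in B cells (log2 difference 1.21, SE 0.27, adjusted p = 0.00339) and T cells (0.91, SE 0.27, adjusted p = 0.0424), and that of Tollip differed from B cells (0.60, adjusted p = 0.0196). Neither differed by that test from Ly6Clow monocytes (Myd88 0.89, adjusted p = 0.113, and Tollip 0.40, adjusted p = 0.272). Of all genes 6.18% passed it against B cells, 3.22% against T cells and 0.363% against Ly6Clow monocytes. Both genes had already passed SUS vs. CON in Ly6Chigh monocytes, a change that the test contains, so these values are a description.

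The receptors had their own order of cell types. Il18r1, the ligand-binding chain for interleukin-18, was 109 ± 9.17 CPM in CON T cells, 44.9 ± 13.4 CPM in Ly6Clow and 1.43 ± 1.66 CPM in Ly6Chigh monocytes. Il18rap was 106 ± 24.3 CPM in Ly6Clow monocytes and 48.4 ± 21.8 CPM in T cells. In the same Ly6Clow CON libraries the natural killer cell markers summed to 244 to 826 CPM with all 4 detected, and their part in these levels was not tested. Il1r1, the signalling receptor for interleukin-1β, averaged 0.604 ± 0.458 CPM in CON T cells, 0.295 ± 0.372 CPM in CON Ly6Clow and 0.0609 ± 0.104 CPM in CON Ly6Chigh monocytes, and no B cell library had a read. T cells of stressed mice held 4.85 ± 3.28 CPM (SUS) and 3.06 ± 1.91 CPM (RES), with 5 of 6 SUS and 4 of 5 RES libraries above every CON library. These values did not pass over all genes (SUS vs. CON 2.99, SE 0.73, unadjusted p = 0.000417, adjusted p = 0.189, and RES vs. CON 2.34, SE 0.74, adjusted p = 0.812).

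As a description, the 3 genes with the most similar pattern to each member were sought among 7686 protein-coding genes with at least 10 CPM on average, by Pearson's r of log2 CPM with 0.5 CPM added over the 18 libraries of Ly6Chigh monocytes. The libraries of a group share its treatment, so r carries the group means too. Pycard was most like Umps (r = 0.87), Ncf4 (0.82) and Cox7a2 (0.81). Il1b was most like Nucb2 (0.885), Rab32 (0.883) and Ifngr1 (0.84), and Nlrp3 most like Srrm2 (0.83), Srcap (0.83) and Fam193b (0.82). Casp1 was most like Zfp654 (0.92), Usp32 (0.87) and Slc35a3 (0.86), and its neighbour Casp4 most like Prpf39 (0.90), Zfp748 (0.87) and Acvr2a (0.87). Gsdmd was most like St3gal3 (0.91), Arhgef10l (0.87) and Rasal3 (0.85), and Nlrc4 most like Upf3b (0.87), Pggt1b (0.86) and Plcb1 (0.78). Il18 was most like Nf2 (0.84), Cript (0.76) and Xxylt1 (0.75), Il1rn most like Trem3 (0.82), Znrd1 (0.80) and Arfgap2 (0.79), and Il1r2 most like Erg28 (0.79), Rpl37a (0.76) and Emc6 (0.74). No member was among the 3 nearest genes of another.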

How the data were processed

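RNA was measured in leukocytes sorted from mouse blood. The authors prepared libraries with the SMARTer Stranded Total RNA-Seq Pico kit, sequenced paired-end reads, mapped them to mm10 with HISAT2 and counted the reads of each Ensembl gene with HTSeq. The deposited values are raw read counts per gene and library, without normalization or pooling. The handling of duplicate reads and of strand in counting is not given in the sources used here. Without molecular identifiers, reads are not independent molecules. The table was used in full, apart from the 2 libraries left out.

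Identifiers were matched to GENCODE M21 (GRCm38, 52489 of 52636 genes). Counts were fitted with edgeR 4.0.16 in R 4.3.3 (filterByExpr, TMM, robust quasi-likelihood F test, Benjamini-Hochberg adjustment over all genes tested), with the 3 groups of a cell type in 1 fit and TMM within that cell type. CON libraries of the 4 cell types had a fit of their own. Differences between cell types were tested as interactions in a fit of 12 group means. Standard errors are the log2 fold change over the square root of F, and 95% intervals use the degrees of freedom of the fit. CPM (counts scaled by library size) are on TMM over the 68 libraries. The fits were tested on simulated data with 200 changed genes. No 2 libraries of a group held identical counts.

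The members, lists, markers and motifs were chosen with earlier results of these data known. All members are named, and pathway genes are named where they passed the test or, for up to 4 more, where their level was high. The receptors Il18r1 and Il1r1 were named after their values were seen. Alternatives were DESeq2 1.42.0, its size factors, no filter, at least 10 counts in every library, 2 groups only, removal of mitochondrial, hemoglobin, Gm23935 and Gm26917 genes, red cell or neutrophil marker covariates, and each library left out. Leaving out B cell libraries in the interaction fit was added after the data were seen. Thresholds were the study's. Ahsp of the red cell list had no match, and a promoter sequence of Gsdmd and the protein sequences were not used here. The list of classical monocyte markers is not reported here.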

Additional observations from a re-analysis of the deposited data

Results flagged for a closer look

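Of 90 groups of a member with a mean of at least 1 CPM, 7 held a library that stood apart from the others by Dixon's criterion at the 95% level on log2 CPM with 0.5 CPM added. Chance alone gives this in about 1 in 20 groups.

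In Ly6Chigh monocytes, Pycard was 29.95 CPM in 1 RES library beside 42.7 to 46.4 CPM in the other 5, and Nlrc4 was 19.76 CPM in 1 SUS library beside 34.4 to 45.2 CPM in the other 5. In CON Ly6Clow monocytes, Casp4 was 21.62 CPM in 1 library beside 33.7 to 36.1 CPM in the other 3, and Gsdmd was 154.4 CPM in another beside 185 to 190 CPM. In B cells, Casp4 was 21.44 CPM in 1 CON library beside 8.31 to 11.1 CPM, and 4.71 CPM in 1 SUS library beside 11.0 to 14.1 CPM. Nlrc4 was 19.9 CPM in 1 SUS library of B cells beside 31.0 to 33.5 CPM in the other 5. That SUS library of B cells is also the one with 106 reads of Nlrp3.

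In an interaction test of the SUS vs. CON change between Ly6Chigh monocytes and B cells, Nlrp3 was the only one of 30 such tests of the members past the threshold (log2 difference −7.247, edgeR adjusted p = 0.00807). Nlrp3 did not pass the filter on low counts within B cells and was tested only through its level in monocytes, so this gives no support for a change in B cells, where its own edgeR test without the filter had an adjusted p of 0.297. In Ly6Chigh monocytes the mean was 138 ± 21.9 CPM in CON and 112 ± 18.3 CPM in SUS mice (SD, n = 6 each). In B cells it was 0.0052 CPM in CON mice, from a single read, and 1.022 ± 1.31 CPM in SUS mice. For Il1rn against B cells the difference could not be estimated, since no CON library of B cells had a read.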

How the results depend on the processing

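The count of members called was 0 for the 12 stress comparisons in each alternative, with 2 exceptions for SUS vs. CON in Ly6Chigh monocytes. It was 1 with the adjusted p alone (Pycard), and 0 to 1 with a library left out (1, Il1b, without SUS replicate 2). In CON mice, Ly6Chigh vs. Ly6Clow monocytes gave 2 members, 4 with only these groups in the fit (Nlrp3, Il1b, Il1rn, Il18) and 1 to 2 with a library left out. B vs. T cells gave 7, of which 3 were tested only through the monocytes, and 3 with only these groups in the fit. In that fit Nlrp3, Il1b, Il1rn and Il1r2 were no longer tested and Il18 missed the threshold (edgeR adjusted p = 0.0614). The share of all genes called in the fits of 2 cell types is not given here, so nothing is read from the counts of 4 and 3. The count of members whose SUS vs. CON change differed between Ly6Chigh monocytes and B cells was 1 to 2 with a library left out. Counts for the other comparisons stayed within 1.5 times in the alternatives run. For single log2 fold changes under other models, 20 lost and 3 gained a pass at the adjusted p and 1012 kept their side, and with a library left out 36 lost, 2 gained and 2155 kept it. No value that passed in either fit changed sign, while 155 that passed in neither did. TMM factors of each cell type alone moved 16 of 120 mean levels by more than 1 SD, 15 of them in Ly6Clow monocytes, and DESeq2's size factors moved 0 of 120. The latter shifted the median log2 fold change of all genes for SUS vs. CON in Ly6Chigh monocytes from −0.05 to −0.11. Keeping libraries 52 and 70 called no further member. With the red cell covariate none of the genes named for Ly6Chigh monocytes passed for SUS or RES vs. CON, and the cause was not tested. No paired analysis was possible because the labels give libraries no replicate numbers or mice. The replicate numbers used in this report count the libraries of a group in their listed order. Where a member has few reads, as Nlrp3, Il1b, Il1rn and Il1r2 in lymphocytes, depth limits any statement on change.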
